A study of Mus musculus with 4 samples.

Results

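Integrins are the transmembrane receptors that bind cells to extracellular matrix and to each other, and laminins are the trimeric proteins that build the sheet of basement membrane on which epithelial cells, endothelium and muscle rest. The 36 mouse genes described here are the integrin alpha and beta chain genes and the laminin alpha, beta and gamma chain genes that were chosen as members of these families, 26 integrin and 10 laminin genes among the 23787 genes that the arrays named. The choice rested on family membership and took no measured value as a criterion, but earlier results of these data were known when it was made. Signal was sufficient to test 33 of them (23 integrins and all 10 laminins) among 16443 genes tested. Itgad, Itgb8 and Itga2b were too dim for the test, which required signal well above background in both replicates of at least 1 genotype.

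The tumours grew in the lungs of C57BL/6J KP mice, which develop adenocarcinoma after Cre recombinase is delivered to the lung. Every mouse was given Cre by adenovirus through the trachea, 88 to 92 days ahead of RNA extraction. The 2 CD109+/+ samples came from females, and of the 2 CD109-/- samples replicate 1 was male and replicate 2 female. Both genotypes carry the KP background and received the virus. Mouse ages, the promoter driving Cre and the cells that lost CD109 are not given here, and bulk tumour RNA includes that of host cells. In bulk tissue fewer cells of a type and less RNA per cell cannot be told apart. Whether replicates were separate animals is not stated, and p-values therefore measure only the spread between these samples.

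Each integrin is a pair of an alpha and a beta chain, and the pair sets the ligand. Leukocyte integrins share Itgb2 or Itgb7 and bind cell surface ligands during migration and cell contact. Pairs of Itgb1 with Itga1, Itga2, Itga10 or Itga11 bind collagen, pairs with Itga3, Itga6 or Itga7 and the pair of Itga6 with Itgb4 bind laminin, and pairs of Itgav with Itgb6 or Itgb8 release active TGF-beta from its latent complex. CD109 is a cell surface protein that binds TGF-beta receptors, and the study asked how its loss bears on invasion through that pathway.

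Signals are given as log2 of each array's processed signal relative to that array's 75th percentile, which lay between 557 and 688. Values of different genes come from different probes and are not compared as levels. The summed signal of a marker list is weighted towards its brightest probes. Differences are CD109-/- minus CD109+/+ with limma's standard error (SE, n = 2 per genotype). Between 64.3% and 67.0% of spots were well above background and 0 were saturated. Over the genes tested, arrays of the same genotype correlated at 0.979 (CD109+/+) and 0.961 (CD109-/-), and CD109+/+ replicate 2 and CD109-/- replicate 2 at 0.978. The targeted gene followed its labels. Cd109 had log2 signals of -3.70 and -4.66 in CD109+/+ and was not well above background on either CD109-/- array, so that it was at least 2.92-fold higher in CD109+/+ (limma adjusted p = 0.299); whether the probe lies in the deleted part was not examined. The surfactant gene Sftpc, a marker of alveolar type 2 cells, had log2 signals of 9.11 and 8.96 in CD109+/+ and 8.92 and 8.79 in CD109-/-, so the lung epithelium that the tissue label implies was present on all 4 arrays.

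Among the 33 tested genes the largest differences were lower Itga11, a collagen-binding chain, and higher Lama3, an epithelial laminin chain, and Itga8, a chain of mesenchymal cells, in CD109-/- tumours. None passed limma's Benjamini-Hochberg threshold of 0.05 over all genes (lowest adjusted p among them 0.541), and 0% of all genes did. Of the 33, 23 had a higher mean in CD109-/- tumours and 10 a lower one, against 50.3% higher and 49.7% lower over all genes. At an unadjusted p under 0.05 limma gave 6 higher genes (Itgax, Itgal, Itgb2, Lama3, Itga8 and Itga4), where 5.0% of all genes were higher at that level, and 1 lower gene (Itga11), where 2.41% were lower (7.41% in either direction). A difference of at least 1 on the log2 scale was seen in 3 members, Itga11, Itga8 and Lama3, and in 6.51% of all genes. Both CD109-/- arrays lay above both CD109+/+ arrays in 11 of the 33 genes (20.3% of all genes), among them Lamc3, which passed the filter only through CD109-/- tumours, and below them in 2, Itga11 and Itgam (18.3% of all genes). The median difference was 0.19 over the 33 genes and 0.0029 over all genes tested. With normexp background correction, which shrinks differences of dim probes, Itgal was no longer among the 6. With sex as a covariate Itga4, Itgb2 and Lama3 were not, and with a mean-variance trend Itga4 was not. These counts rest on 4 arrays. Which and how many members reached that unadjusted level changed with the array left out. Without CD109-/- replicate 1 the differences of Itgae, Lama2 and Lamc3 grew to 0.94, 1.32 and 1.55. Those of Itgb2, Itga4 and Lama3 fell to 0.67, 0.59 and 0.84. The fit with sex as a covariate gave the same differences as this fit, which leaves out the male sample, and is not a separate check. For a single gene, 2 arrays per genotype limit an exact permutation test (two-sided) to p = 0.333 or more.

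**Figure D1:**
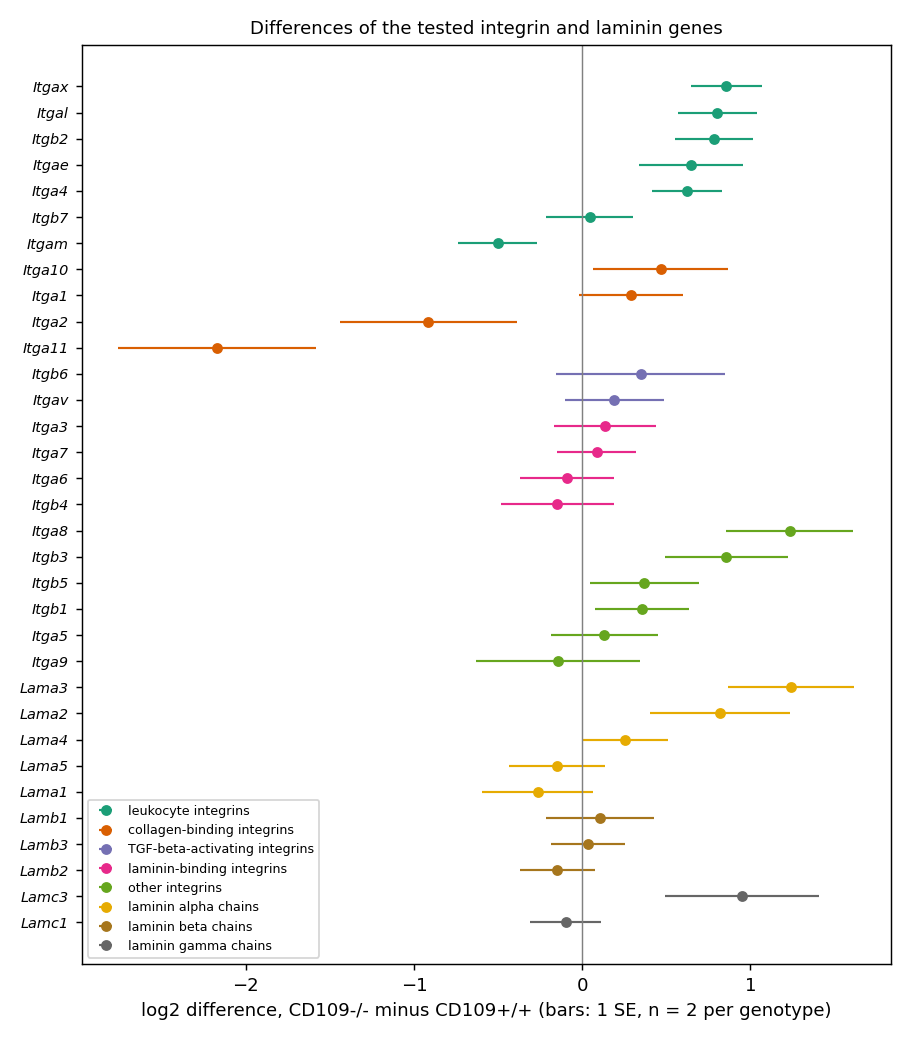
Log2 differences (CD109-/- minus CD109+/+, horizontal axis) of the 33 tested integrin and laminin genes, grouped by class and ordered by size within it; points are limma estimates and bars 1 SE with n = 2 per genotype. Itga11 stands lowest at -2.17 and Lama3 highest at 1.24, while the laminin-binding integrins lie within 0.15 of 0.

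The leukocyte integrins formed the class with the most higher members. Of its 8 genes 7 were tested and 6 had higher values in CD109-/- tumours (50.3% of all genes), with a median difference of 0.65. In limma 4 were among those higher at an unadjusted p under 0.05 (5.0% of all genes). Itgax, the alpha chain of dendritic cells and of lung macrophages, had log2 signals of 2.49 and 2.57 in CD109+/+ and 3.32 and 3.45 in CD109-/- tumours. The genotypes did not overlap and were 0.86 ± 0.21 apart, a 1.81-fold difference (limma adjusted p = 0.541). Its other probes gave 0.44 ± 0.26 and 0.93 ± 0.26, in the same direction.

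Itgal, the alpha chain of the integrin with which lymphocytes bind ICAM proteins, had log2 signals of -2.63 and -2.69 in CD109+/+ and -2.03 and -1.68 in CD109-/- tumours. The groups did not overlap, with a difference of 0.80 ± 0.23 or 1.75-fold, and 0.48 with normexp. Itgb2, the beta chain that pairs with Itgal, Itgam, Itgax and Itgad, had log2 signals of 0.53 and 0.30 against 1.31 and 1.09. Both CD109-/- arrays were again the higher ones, by 0.78 ± 0.23 or 1.72-fold. The Itgal and Itgb2 probes are the single named probes of their genes (limma adjusted p = 0.582 for both).

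Itga4, whose integrins bind VCAM and fibronectin, had log2 signals of -1.94 and -1.91 in CD109+/+ and -1.27 and -1.33 in CD109-/- tumours. It had the closest replicates of the class and a difference of 0.62 ± 0.21, or 1.54-fold (limma adjusted p = 0.611). Itgae, carried by T cells and dendritic cells that sit in epithelium and bind E-cadherin, stood at -2.53 and -2.15 against -1.99 and -1.39, a difference of 0.65 ± 0.31 with no overlap. For Itgb7, the partner of Itga4 and Itgae, 2 probes disagreed. The brighter one, named through a predicted transcript, gave 0.05 ± 0.26 with overlapping groups. The other, named through the curated transcript, had log2 signals of -1.49 and -1.83 in CD109+/+ and -0.93 and -0.82 in CD109-/- tumours, a difference of 0.78 ± 0.25 in the fit by probe (limma adjusted p = 0.657).

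Itgam, the alpha chain of neutrophils, monocytes and macrophages, was the class member with lower values. Its log2 signals were 5.04 and 5.37 in CD109+/+ and 4.65 and 4.75 in CD109-/- tumours, 1.42-fold lower with a difference of -0.50 ± 0.23 (limma adjusted p = 0.721; 95% interval -1.12 to 0.12). Both CD109-/- arrays lay below both CD109+/+ arrays, opposite to its beta partner Itgb2 and to Itgax. A second Itgam probe, named through another transcript of the gene and far dimmer, gave -0.21 ± 0.25. Itgad, the remaining Itgb2 partner, was not well above background on any array. Leaving out any single array kept Itgax between 0.79 and 0.92, Itgal between 0.63 and 0.98, Itgb2 between 0.67 and 0.90, Itga4 between 0.59 and 0.65, Itgae between 0.35 and 0.94 and Itgam between -0.67 and -0.34. The genotypes did not overlap in these genes, so leaving out 1 array could not have turned their directions.

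**Figure D2:**
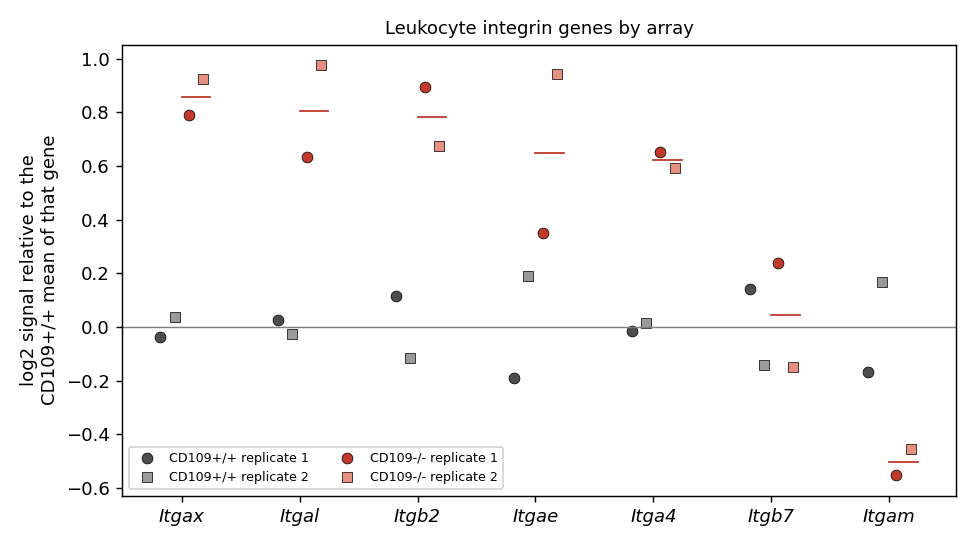
Log2 signal of the 7 tested leukocyte integrin genes on each of the 4 arrays, relative to that gene's CD109+/+ mean (grey line at 0); grey symbols are CD109+/+ and red symbols CD109-/- arrays, and short red lines the CD109-/- means. The red symbols lie above both grey ones for Itgax, Itgal, Itgb2, Itgae and Itga4 and below them for Itgam.

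Itgam and Itgax are adjacent genes of chromosome 7, with Itgad as the next protein-coding neighbour, in the RefSeq annotation of GRCm38.p6. They gave differences of opposite sign. The 250 bases before their start sites are shown beside each other, in gene orientation, from RefSeq promoters of GRCm38.p6. The letters GAGGAA, a core of sites of the myeloid factor PU.1, were searched on both strands, where the other strand reads TTCCTC, and matches are in capitals.
Itgam, chr7:128062390-128062639, plus strand: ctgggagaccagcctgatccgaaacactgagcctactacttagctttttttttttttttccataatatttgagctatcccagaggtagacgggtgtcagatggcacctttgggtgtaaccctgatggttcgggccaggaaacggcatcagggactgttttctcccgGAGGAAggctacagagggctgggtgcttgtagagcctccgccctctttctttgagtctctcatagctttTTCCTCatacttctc
Itgax, chr7:128129300-128129549, plus strand: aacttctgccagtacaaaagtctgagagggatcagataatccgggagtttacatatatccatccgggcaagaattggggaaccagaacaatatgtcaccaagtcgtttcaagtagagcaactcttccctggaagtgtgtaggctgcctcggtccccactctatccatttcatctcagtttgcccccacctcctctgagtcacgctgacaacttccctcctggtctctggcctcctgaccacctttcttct
The Itgam window holds 2 matches, 1 on each strand, and the Itgax window 0. Taking the first listed window of each gene, 23.1% of 27025 genes have a match, and 11 of the 23 integrin and laminin genes with a window do. A match is a run of letters and not a measured site, and its bearing on the differences was not tested. Windows of Itgal, Itgb2 and Itgae were not used here.

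Markers of several leukocytes were higher on the same arrays. All 8 macrophage and monocyte markers had higher means in CD109-/- tumours, and the log2 of their summed signal was 5.49 and 5.78 in CD109+/+ and 6.66 and 6.13 in CD109-/- tumours. The macrophage marker gene Adgre1 differed by 0.94 ± 0.25. Of 5 tested dendritic cell markers 4 were higher, with summed levels of -1.46 and -1.35 against -0.20 and -0.17, and Xcr1 was not well above background. Flt3 and Cd209a passed the filter only through CD109-/- tumours, in which they were higher. Zbtb46, the lower marker (-0.40 ± 0.33), passed only through CD109+/+ tumours. The growth factor receptor gene Flt3 of dendritic cells had log2 signals of -6.42 and -5.12 against -3.92 and -3.22, the first of these being not well above background, and its difference was 0.60 with normexp background correction. Of 5 tested T cell markers 4 were higher, with summed levels of 1.89 and 1.75 against 2.00 and 1.95. The T cell receptor complex gene Cd3d had the largest difference of the list, 1.63 ± 0.30 (1.06 with normexp), and Cd3g differed by 1.54 ± 0.32. The other tested markers differed little, Cd3e by 0.30 ± 0.24, Lck by 0.04 ± 0.23 and Cd4, the lower marker, by -0.12 ± 0.21. Cd8a was not well above background. Of 6 neutrophil markers 5 were higher (summed levels 6.51 and 6.41 against 6.53 and 6.60). The largest part of these sums was Csf3r, the lower marker, at 6.16 and 6.27 against 5.95 and 6.15. B cell markers were higher in 1 of 5 (0.57 and 1.55 against 0.56 and 1.48). The NK cell list had 2 tested markers of 5, both higher, at summed levels of -1.77 and -2.17 against -0.14 and -1.18, whereas Ncr1, Klrb1c and Eomes were not well above background. The part of these cells in the integrin values was not tested.

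Integrin activation and the adhesion plaque inside the cell were read from a list of 28 genes, 14 higher and 14 lower, with a median difference of 0.06. At an unadjusted p under 0.05 limma gave 4 higher and 0 lower genes, where 5.0% of all genes were higher and 2.41% lower, and 0 passed the adjusted threshold. Apbb1ip, which brings talin to the membrane of leukocytes, had log2 signals of -0.48 and -0.71 in CD109+/+ and 0.59 and 0.22 in CD109-/- tumours, a difference of 1.00 ± 0.25. Fermt3, the kindlin of blood cells, stood at -3.18 and -3.19 against -2.29 and -2.67, or 0.70 ± 0.24. Parvg, the parvin of blood cells, differed by 0.79 ± 0.26. All 3 had both CD109-/- arrays above both CD109+/+ arrays, which held in 10 of the 28 listed genes and 20.3% of all genes. The fourth gene was Lims2, a partner of integrin-linked kinase, at 1.02 ± 0.33, likewise without overlap of the genotypes. Fermt3 (0.41) and Parvg (0.52) were not at that level with normexp, nor with sex as a covariate.

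The collagen-binding alpha chains went both ways, with 2 higher and 2 lower genes and a median difference of -0.31. Itga11, the receptor chain for fibrillar collagen on fibroblasts, had log2 signals of -0.50 and -2.01 in CD109+/+ and -3.08 and -3.77 in CD109-/- tumours. Both CD109-/- arrays lay below both CD109+/+ arrays, which were themselves far apart. The difference of -2.17 ± 0.59 was 4.50-fold (limma adjusted p = 0.561; 95% interval -3.73 to -0.61). Leaving out CD109+/+ replicate 1 gave -1.42, and leaving out replicate 2 of that genotype gave -2.92. Only 1 probe named Itga11.

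Itga2, a collagen receptor chain of epithelial cells and platelets, had log2 signals of 3.21 and 2.67 in CD109+/+ and 2.70 and 1.35 in CD109-/- tumours. The genotypes overlapped, the low value being that of CD109-/- replicate 2, and the difference was -0.91 ± 0.52 (second probe -1.15 ± 0.53). It shrank to -0.24 when that array was left out and was -1.59 without the other CD109-/- array. Itga1, found on smooth muscle and resident T cells, differed by 0.29 ± 0.31 with overlapping groups, and its second probe by -0.12. Itga10, a chain best known from cartilage, differed by 0.47 ± 0.40 and its second probe by -0.58, so that its direction depended on the probe.

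Itga11 showed the widest difference of all members, and its promoter window is given with the same letters searched.
Itga11, chr9:62677605-62677854, plus strand: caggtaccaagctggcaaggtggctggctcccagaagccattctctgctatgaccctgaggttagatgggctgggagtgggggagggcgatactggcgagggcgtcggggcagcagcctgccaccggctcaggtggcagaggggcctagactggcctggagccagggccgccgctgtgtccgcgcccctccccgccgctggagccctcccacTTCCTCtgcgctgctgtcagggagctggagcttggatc
The window holds 1 match to GAGGAA, read on the other strand and in capitals. It holds 0 matches to CAGAC, the letters of a SMAD box, on either strand, whereas, again by the first listed window of each gene, 42.1% of the 27025 genes and 14 of the 23 members hold that shorter run.

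Fibroblast markers were read on the same arrays. All 6 had higher means in CD109-/- tumours, as 50.3% of all genes did. Summed levels were 4.79 and 4.64 in CD109+/+ and 5.28 and 5.05 in CD109-/- tumours. Pdgfra, the receptor gene for platelet-derived growth factor on fibroblasts, had the largest difference of the list, 1.77 ± 0.37. Pdgfrb (0.01 ± 0.38) and Col1a1 (0.06 ± 0.40) differed by less than their SE, with overlapping groups. The part of fibroblast content in the integrin values was not tested.

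Of the 3 chains in the TGF-beta-activating class 2 were tested, and the difference of each was smaller than its SE. Itgav, which pairs with several beta chains, had log2 signals of 3.27 and 2.86 in CD109+/+ and 3.50 and 3.02 in CD109-/- tumours, a difference of 0.19 ± 0.29 (95% interval -0.59 to 0.97). Itgb6, the epithelial beta chain, had 0.58 and -0.77 against 0.41 and 0.10, a difference of 0.35 ± 0.50 (95% interval -0.99 to 1.68). The genotypes overlapped in both genes, and the intervals do not show equal levels. A second Itgb6 probe gave 0.40. Itgb8 was not well above background on any array, with its single probe.

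Genes of the TGF-beta that these integrins act on were higher in 7 of 9 cases, with a median difference of 0.51 and 2 at an unadjusted p under 0.05, where 50.3% of all genes were higher and 5.0% were so at that level. Those were Nrros, which holds latent TGF-beta on myeloid cells (0.86 ± 0.23), and Ltbp1, which holds it in matrix (0.65 ± 0.22). Tgfb3 differed by 0.61 ± 0.25 and Tgfb1 by 0.46 ± 0.29, and 0 passed the adjusted threshold. Ltbp1 was not at the unadjusted level with normexp (0.46), nor was either gene with sex as a covariate.

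Among the remaining integrins, Itga8 and Itgb3 had the largest differences. Itga8, a chain of mesenchymal cells that binds nephronectin and fibronectin with Itgb1, had log2 signals of -1.89 and -1.52 in CD109+/+ and -0.91 and -0.03 in CD109-/- tumours. The groups did not overlap and the difference of 1.23 ± 0.38 was 2.35-fold (limma adjusted p = 0.587). It ranged from 0.79 without CD109-/- replicate 2 to 1.67 without CD109-/- replicate 1.

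Itgb3, the beta chain of platelets, osteoclasts and angiogenic endothelium, had log2 signals of 0.46 and -0.24 against 1.26 and 0.67. Both CD109-/- arrays were higher, by 0.86 ± 0.37 or 1.81-fold, and the second probe gave 0.67. Itga2b, its platelet partner, was well above background on 1 array only, CD109+/+. Platelet markers were higher in 2 of 4 tested genes, at summed levels of 3.03 and 5.73 against 3.01 and 4.42, and Gp1ba and Gp9 were not well above background. Endothelial markers were higher in 6 of 6 genes, at summed levels of 2.66 and 2.68 against 2.81 and 3.30, and their part was not tested.

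Itgb1, the common beta chain of collagen, laminin and fibronectin receptors, stood at 4.94 and 4.83 in CD109+/+ and 5.52 and 4.95 in CD109-/- tumours. The difference of 0.35 ± 0.28 was carried mainly by CD109-/- replicate 1 and was 0.07 without it, and the second probe gave 0.06 with overlapping groups. Itgb5, a vitronectin receptor chain, differed by 0.37 ± 0.32, the fibronectin receptor chain Itga5 by 0.13 ± 0.32 and Itga9, a receptor chain for tenascin and VCAM, by -0.14 ± 0.49 (second probe 0.06). The genotypes overlapped in all 3, and leaving out 1 array turned the direction of Itga5 and Itga9.

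Ligands of integrins were higher in 14 of 17 tested genes, with a median difference of 0.30 and 3 at an unadjusted p under 0.05, where 50.3% of all genes were higher and 5.0% were so at that level. These were Icam2, an endothelial ligand of Itgal (0.65 ± 0.22), the matricellular gene Ccn2 (0.71 ± 0.25) and the vitronectin gene Vtn (0.83 ± 0.30). Vtn was dim, and its difference was 0.11 with normexp; it was not at that level there or with a mean-variance trend, nor was Ccn2 with sex as a covariate. Fibronectin (Fn1) differed by 0.26 ± 0.34, Icam1 by 0.36 ± 0.30, the tenascin gene Tnc by 0.74 ± 0.46 and the Itgae ligand Cdh1 by 0.20 ± 0.42. Vcam1, the endothelial ligand of Itga4, differed by -0.49 ± 0.30. Osteopontin (Spp1) had log2 signals of 6.41 and 5.99 in CD109+/+ and 7.25 and 3.13 in CD109-/- tumours, so that its difference of -1.005 ± 1.39 was set by CD109-/- replicate 2 and was 1.06 without it.

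**Figure D3:**
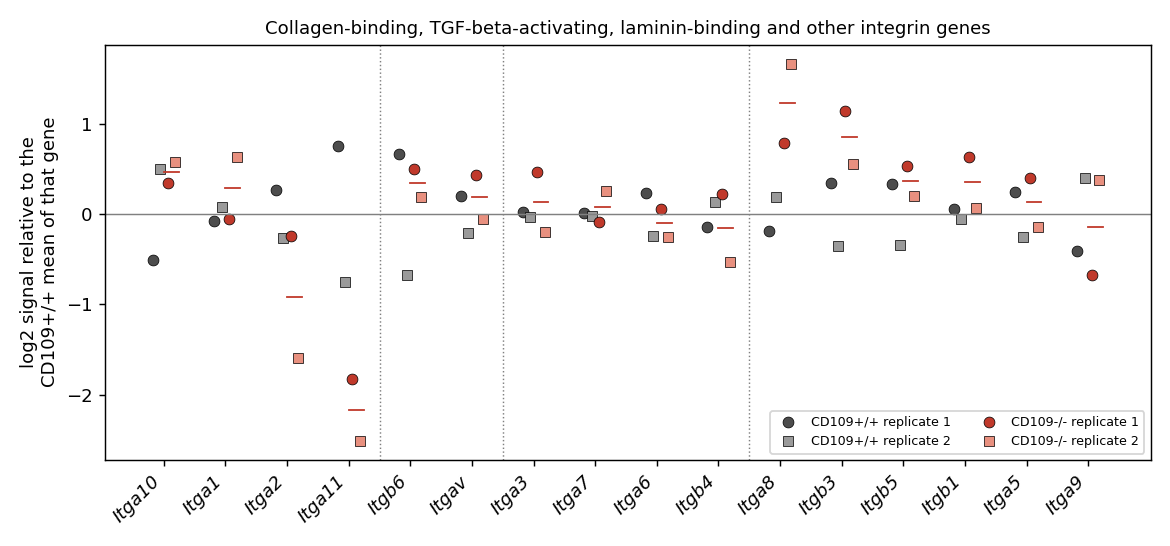
Log2 signal of the 16 tested integrin genes outside the leukocyte class on each array, relative to the gene's CD109+/+ mean; dotted lines separate, from the left, collagen-binding, TGF-beta-activating, laminin-binding and other chains, and short red lines are CD109-/- means. Itga11 lies lowest, Itga8 and Itgb3 stand above 0, and the laminin-binding chains scatter about 0 in both genotypes.

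Among the integrin classes the laminin-binding chains had the smallest differences. Itga6, which anchors epithelium with Itgb4, had log2 signals of 5.17 and 4.70 in CD109+/+ and 4.998 and 4.69 in CD109-/- tumours, a difference of -0.09 ± 0.28 (95% interval -0.83 to 0.65). Itgb4, its hemidesmosome partner, stood at 2.12 and 2.39 against 2.49 and 1.73, a difference of -0.15 ± 0.34 (95% interval -1.04 to 0.74). In both genes the genotypes overlapped.

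Itga3, the laminin receptor chain of alveolar and airway epithelium, differed by 0.14 ± 0.30 (95% interval -0.67 to 0.94) and its second probe by 0.35. Itga7, best known from muscle, differed by 0.09 ± 0.23 (95% interval -0.53 to 0.70) and its second probe by 0.34. The intervals of these genes do not show equal levels. Leaving out 1 array turned the direction of all 4.

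Laminins gave a median difference of 0.07 over 10 genes, 6 higher and 4 lower, and in 3 of them, Lama3, Lama2 and Lamc3, both CD109-/- arrays were above the CD109+/+ arrays, as in 20.3% of all genes. Lama3, the alpha chain of the epithelial laminin that hemidesmosomes hold, had log2 signals of 0.59 and 0.11 in CD109+/+ and 2.00 and 1.19 in CD109-/- tumours. The difference of 1.24 ± 0.37 was 2.36-fold (limma adjusted p = 0.584; 95% interval 0.25 to 2.23). Its second probe had log2 signals of -1.37 and -1.91 against -0.34 and -0.65 and gave 1.14 ± 0.30. Leaving out 1 array gave between 0.84 and 1.65.

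Lama2, the alpha chain of muscle and mesenchymal basement membrane, had log2 signals of -1.96 and -1.52 in CD109+/+ and -1.42 and -0.42 in CD109-/- tumours. Its difference of 0.82 ± 0.42 came mostly from CD109-/- replicate 2 and was 0.32 without it, and the second probe gave 0.06. Lamc3, a gamma chain of restricted distribution, stood at -5.74 and -5.45 against -5.24 and -4.05, and was well above background on 1 CD109+/+ and 2 CD109-/- arrays. Its difference of 0.95 ± 0.46 was likewise 0.35 without CD109-/- replicate 2, and 0.15 with normexp; it passed the filter only through the genotype in which it was higher. Lama4, the alpha chain of vessels, differed by 0.26 ± 0.25 while its second probe gave -0.41.

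Lama5, the main alpha chain of adult lung basement membrane, stood at 5.01 and 4.54 in CD109+/+ and 4.81 and 4.44 in CD109-/- tumours, a difference of -0.15 ± 0.29. Lama1, mainly an embryonic chain, differed by -0.26 ± 0.33. The beta and gamma chains that pair with these alpha chains differed little. Lamb1 gave 0.11 ± 0.32, Lamb2 -0.15 ± 0.22 and Lamc1 -0.10 ± 0.21. Lamb3, the beta partner of Lama3, had log2 signals of 4.53 and 4.46 against 4.41 and 4.64, a difference of 0.03 ± 0.22 (95% interval -0.55 to 0.62). Its second probe gave 0.24, with both CD109-/- arrays above the CD109+/+ arrays.

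**Figure D4:**
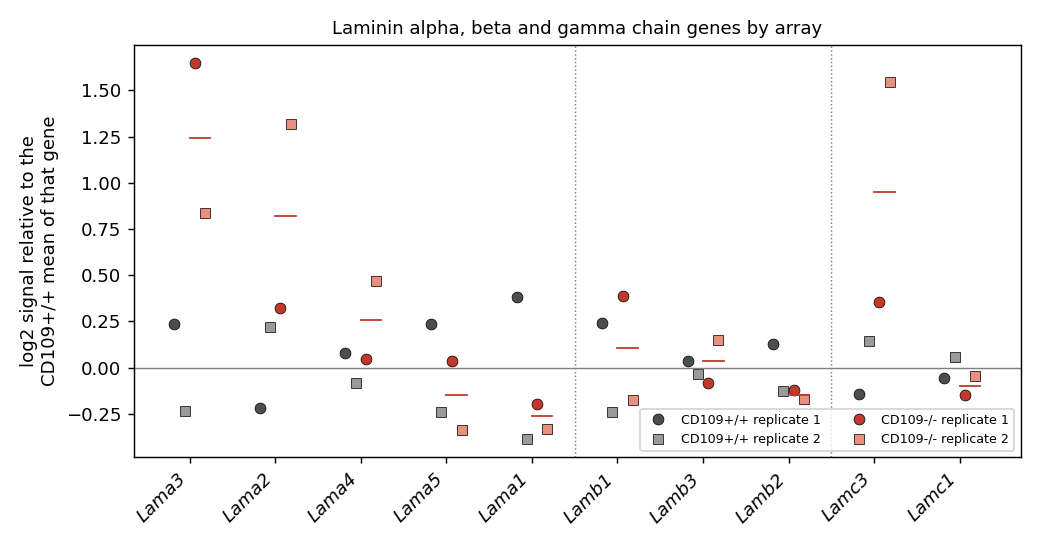
Log2 signal of the 10 laminin genes on each array, relative to the gene's CD109+/+ mean; dotted lines separate alpha, beta and gamma chains and short red lines are CD109-/- means. Both CD109-/- arrays lie above both CD109+/+ arrays for Lama3, Lama2 and Lamc3, and the genotypes overlap in the other 7.

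Proteins that join laminin in the basement membrane or tie cells to it were read from a list of 20 genes, 9 higher and 11 lower, with a median difference of -0.03. The laminin linker gene Nid1 differed by 0.11 ± 0.21 and the network collagen gene Col4a1 by 0.10 ± 0.22. At an unadjusted p under 0.05 limma gave 1 lower and 0 higher genes, where 2.41% of all genes were lower and 5.0% higher. The lower gene was Col15a1, a collagen between basement membrane and stroma. Its log2 signals were -2.90 and -2.11 in CD109+/+ and -3.54 and -3.94 in CD109-/- tumours (-1.24 ± 0.36, and -0.77 with normexp). Its relative Col18a1 differed by -0.87 ± 0.34, both with CD109-/- arrays below CD109+/+ arrays. That held in 3 of the 20 listed genes (18.3% of all genes), and the reverse in 5 (20.3% of all genes). Dst, which links Itgb4 to keratin filaments, differed by 0.44 ± 0.21.

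Epithelial content was read from 6 epithelial markers, 2 higher and 4 lower, at summed levels of 9.10 and 8.21 in CD109+/+ and 8.55 and 7.96 in CD109-/- tumours. Alveolar type 2 markers were higher in 3 of 6 (10.09 and 10.08 against 10.07 and 10.01). Alveolar type 1 markers were higher in 4 of 5 (8.37 and 7.98 against 7.90 and 8.37). Basal and airway markers were higher in 3 of 5, at 6.06 and 6.64 against 7.54 and 7.84. Those sums followed the airway gene Scgb1a1, at 5.91 and 6.51 against 7.49 and 7.79. The lower genes were the basal markers Krt14 (-1.59 ± 0.80) and Trp63 (-0.05 ± 0.23). Smooth muscle markers were higher in 4 of 5 (4.11 and 3.82 against 4.51 and 4.06) and striated muscle markers in 2 of 4 tested (0.50 and 0.26 against 0.35 and 0.35). The part of these cells in the laminin values was not tested.

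Over the members, 13 of the 23 higher and 5 of the 10 lower genes kept their direction whichever array was left out, against 52.6% of higher and 50.1% of lower genes over all genes tested. Genes whose genotypes did not overlap could not turn in these fits. Of the 62 probes that named a member, 22 were further tested probes of 19 genes, and 16 of these had the sign of the probe used.

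**Figure D5:**
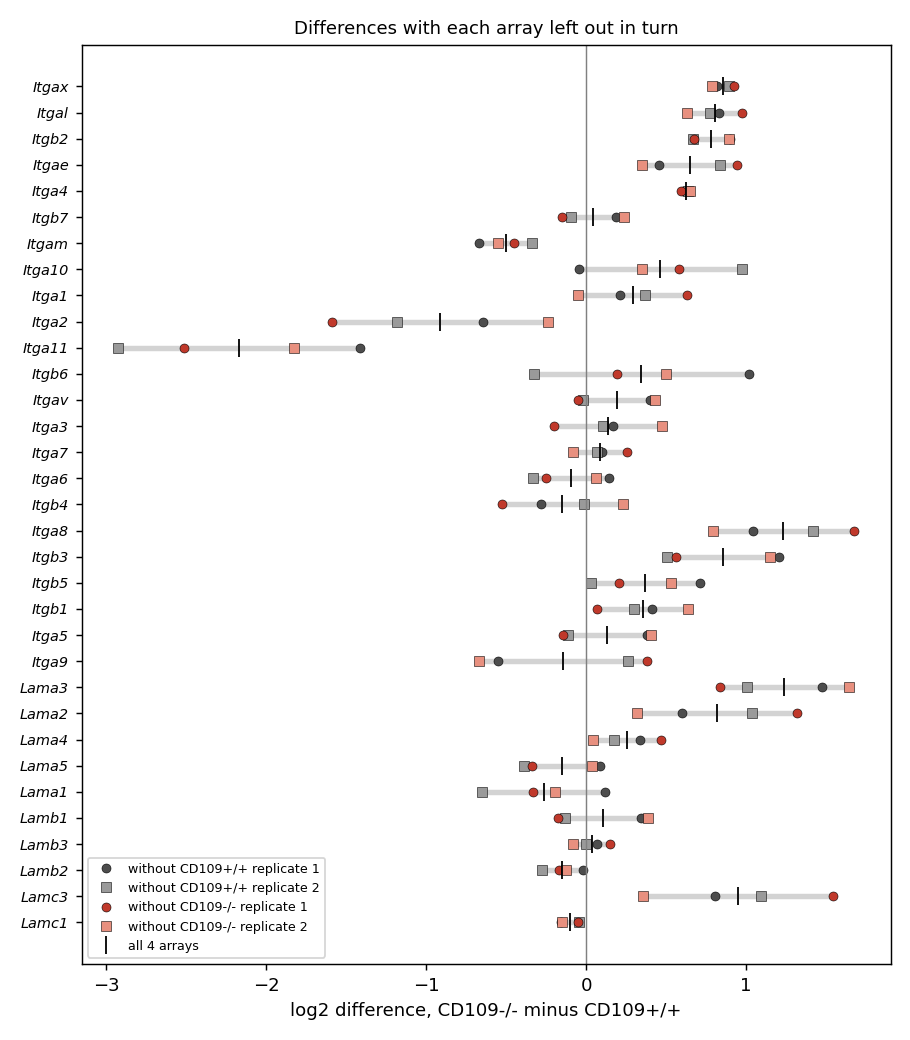
Log2 differences (CD109-/- minus CD109+/+) of the 33 tested genes with each array left out in turn (symbols) and with all 4 arrays (black ticks); grey bars span the 4 fits. The bars of Itgax, Itgal, Itgb2, Itga4, Itga8, Lama3, Itgam and Itga11 stay on one side of 0. Their genotypes did not overlap, which fixes this in advance. The bars of the laminin-binding integrins cross 0.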

How the data were processed

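Lung tumour RNA of 4 samples (2 CD109+/+, 2 CD109-/-) (100 ng each, Cy3) was measured on Agilent 1-colour arrays, as the labels' protocols state. The authors' scanner files, made with Agilent Feature Extraction 12.1.0.3 per the file headers, hold linear intensity values. The processed signal is background-subtracted and not scaled between arrays. A deposited table of processed intensity values equalled the processed signal times 1 constant per array (1.04 to 1.21), whose origin is not stated. It is linear and uncentred, with column medians of 58.8, 76.1, 59.5 and 69.2, and served as an alternative.

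Outlier spots (58 to 73 per array) were left out, spots of 1 probe were averaged as log2 values, and each array's 75th percentile was subtracted. A probe was tested when well above background on both arrays of a genotype (35776 of 56605 probes). Accessions without versions, matched to RefSeq (GRCm38.p6), named 34566 probes. The brightest tested probe stood for a gene. The arrays' own grid build differs from that of RefSeq, and promoter coordinates are those of RefSeq. For a gene not above background in 1 genotype the fold is a bound, of the brighter mean over a floor, set on each dim array by its lowest value well above background or the probe's own, whichever is higher.

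Genotypes were compared on all 16443 genes in limma 3.58.1 (lmFit, eBayes; R 4.3.3), with two-sided tests, Benjamini-Hochberg adjustment and a threshold of 0.05. The procedure was tested on simulated data. The number of arrays limits the precision. Lists are described by counts and medians, without a test. Members, classes and lists were chosen with earlier results of these data known. The rule for named genes took the 36 members, Cd109, the 3 genes of each pathway list with the largest absolute moderated t, a set of fixed genes (among them Fn1, Spp1, Nid1 and Fermt3) and the first marker of each cell type; those bearing on the members are given. Markers beyond the first of a list and markers not above background were named after their values were seen. Alternatives were normexp (offset 50, on median spot and background signals), quantile and median scaling, the authors' table, other filters, sex as a covariate, a variance trend, averaging a gene's probes, the replicate number as a block, and leaving out each array. All 4 arrays lay on 1 slide, so no slide block was run.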

Additional observations from a re-analysis of the deposited data

How the results depend on the processing

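No gene passed limma's adjusted threshold under any alternative, and 0 had done so with the settings used. Cd109 and the cell type markers other than Adgre1, Cd3d, Flt3, Pdgfra and Cdh1 were not followed through the alternatives. Differences of the other single genes named in the text and not listed here kept their direction under the alternatives that could test them. The median difference over all integrins was 0.29 and became 0.21 with normexp, 0.33 with median scaling, 0.24 without a filter, 0.20 with sex as a covariate, 0.21 with the mean of a gene's probes, and 0.11 to 0.40 with 1 array left out. With normexp the leukocyte integrins' median was 0.45 and that of the laminin gamma chains 0.023; with a filter on all 4 arrays the gamma chains' was -0.098, Lamc3 no longer being tested. The basement membrane list's median was 0.013 with median scaling, 0.080 with sex as a covariate and -0.23 to 0.11 with 1 array left out. The laminin-binding integrins' median was -0.22 with sex as a covariate and -0.22 to 0.15 with 1 array left out, the other integrins' 0.28 to 0.59 and the ligands' 0.16 to 0.58.

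At an unadjusted p under 0.05, lower genes numbered 397, against 625 without a filter and 688 with the replicate block, and members 1, against 2 under each of these and with sex as a covariate; 10 members were higher with the replicate block. Same-numbered arrays deviated together at r = 0.36 over 2 pairs, which does not show that numbers pair the samples. With 1 array left out there were 348 to 974 higher and 205 to 955 lower genes, and 0 to 6 higher and 0 to 2 lower members. The cause of these shifts was not tested.

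Directions turned as follows. Lamb3 was -0.0098 with quantile normalization, and Itga10 -0.056 and Lama4 -0.079 with the mean of probes. Sex as a covariate, which leaves the comparison to the females, gave Itgb7 -0.15, Itgav -0.051, Itga3 -0.20, Itga5 -0.14, Itga9 0.38, Lamb1 -0.18 and Cdh1 -0.35. With 1 array left out the ranges that cross 0 were -0.043 to 0.97 for Itga10, -0.33 to 0.15 for Itga6, -0.65 to 0.12 for Lama1, -0.39 to 0.089 for Lama5, -0.15 to 0.24 for Itgb7, -0.051 to 0.43 for Itgav and -0.33 to 1.02 for Itgb6. They were -0.14 to 0.40 for Itga5, -0.67 to 0.38 for Itga9, -0.18 to 0.39 for Lamb1, -0.081 to 0.15 for Lamb3, -0.11 to 0.62 for Fn1, -0.20 to 0.47 for Itga3 and -0.35 to 0.75 for Cdh1. They were -0.048 to 0.63 for Itga1, -0.084 to 0.25 for Itga7, -0.53 to 0.23 for Itgb4 and -3.07 to 1.06 for Spp1. A left-out fit has 1 array in a genotype, assumed to vary like the other. Signal near background limits Lamc3, Vtn, Flt3 and the dimmer probes.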
